A study of Mus musculus with 15 samples.

Results

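Chromosome 8 of mouse embryonic stem (ES) cells was examined in 2 readouts, promoter DNA recovered by methylated DNA immunoprecipitation (MeDIP) and RNA. J1 wild-type ES cells were compared with TKO cells, which lack the DNA methyltransferases Dnmt1, Dnmt3a and Dnmt3b. Members were all tiled array sites placed on chromosome 8, and the genes beside them. This chromosome was chosen by its own MeDIP ratio, so its levels there are given as description with no test. It carried 4173 of 80567 sites, which formed 821 runs, of which 719 held at least 3 sites and 713, of 14113 in all, kept 3 usable sites and are called promoter regions here. Of 813 genes placed beside them, 764 had an expression spot and 455, of 13125 genes measured in all, passed the detection filter.

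DNA came from 7 replicates, each hybridised to a pair of promoter arrays (part 1 and part 2). DNA of J1 was labelled Cy3 and DNA of TKO was labelled Cy5 on all 14 arrays, with no dye swap. RNA of the same cultures was hybridised on 3 arrays, with the dyes exchanged on replicate 2. Both lines were grown without feeders for 2 passages in serum and LIF, and 2 ug of DNA entered each immunoprecipitation. Each line is a single cell line carried through passages. Since 2 part 1 arrays name J1 passage P37, the 7 replicates may not all be separate passages. Replicates come from the same lines, so the spread between them does not cover differences between independently made lines. Every MeDIP value below is log2(Cy3/Cy5), above 0 on the side labelled J1 and below 0 on the side labelled TKO. Over all chromosomes 379 promoter regions were called on the side labelled TKO and 10 on the side labelled J1, although TKO is the line without methyltransferases, so the MeDIP direction rests on the dye labels alone, and turning it would negate every MeDIP value. RNA values are log2(TKO/J1). Dnmt3b was lower in TKO on all 3 arrays, by -2.72, -2.44 and -2.34, and this checks the RNA direction. Of 8 ES cell markers, 6 were detected on all 3 arrays in each line, of which 3 fell in TKO and the other 3 did not pass the test (median -0.35). Of 6 trophoblast markers 3 were measured and all 3 rose (median 2.36), and of 6 fibroblast feeder markers 3 were measured, of which 2 rose and 1 fell.

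Mouse chromosomes carry the centromere at one end, and low positions lie beside it. Chromosome 8 holds the beta-defensin cluster of antimicrobial peptide genes near that end, the metallothioneins and the carboxylesterases further out, and the pluripotency marker Zfp42. Gain of a whole chromosome 8 is a well-known change of mouse ES cells in culture. MeDIP set immunoprecipitated DNA of one line against that of the other, with no input DNA on these arrays, so a ratio holds any difference in the amount of DNA together with a difference in methylation, and the 2 cannot be told apart. A gain from 2 to 3 copies corresponds to 0.585 on a log2 scale without compression.

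The upstream sequences show how unlike the members are in CpG dinucleotides, the bases that DNA methyltransferases modify. RefSeq windows (GRCm38.p6) of 250 bases before the annotated start were matched by symbol to 525 of the 813 genes. Capitals mark the motif CG, which reads alike on both strands and occurs in 91.7% of all 27025 such windows, with a median of 6. The matched chromosome 8 genes had a median of 13, with 13 inside the shifted stretch described below and 14 at both ends. The 27025 windows were not limited to genes with array sites, so the medians of 6 and 13 are over unlike sets. Array sites with a window had a median of 14 on chromosome 8 and 16.3 on the other autosomes of part 1. On part 2 these medians were 20 and 17.8. Pard3 (chr8:127063806-127064055, plus strand, 34 CG) had the highest MeDIP ratio of the chromosome. Tox3 (chr8:90348253-90348502, minus strand, 40 CG) lay on the same side. Defb3 (chr8:19293111-19293360, plus strand, 2 CG) is the first promoter inside the shifted stretch described below, and Cngb1 (chr8:95306586-95306835, minus strand, 3 CG) lies beyond its far edge with the lowest ratio among regions at an annotated start.
Pard3: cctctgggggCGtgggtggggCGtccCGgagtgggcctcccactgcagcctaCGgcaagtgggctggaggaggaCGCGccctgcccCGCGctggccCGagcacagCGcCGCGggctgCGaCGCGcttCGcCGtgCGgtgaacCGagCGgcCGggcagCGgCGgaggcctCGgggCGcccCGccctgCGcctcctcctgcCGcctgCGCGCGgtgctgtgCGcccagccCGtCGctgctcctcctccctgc 
Tox3: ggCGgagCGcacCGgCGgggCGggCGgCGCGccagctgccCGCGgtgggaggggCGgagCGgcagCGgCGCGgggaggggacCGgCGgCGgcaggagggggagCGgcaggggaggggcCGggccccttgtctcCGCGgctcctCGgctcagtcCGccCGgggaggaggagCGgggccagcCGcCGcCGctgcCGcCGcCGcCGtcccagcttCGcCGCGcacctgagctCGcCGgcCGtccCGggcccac 
Defb3: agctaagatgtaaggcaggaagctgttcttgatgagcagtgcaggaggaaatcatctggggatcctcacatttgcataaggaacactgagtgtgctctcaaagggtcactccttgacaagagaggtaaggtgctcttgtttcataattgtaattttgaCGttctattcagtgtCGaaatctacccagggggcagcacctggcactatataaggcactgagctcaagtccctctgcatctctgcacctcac 
Cngb1: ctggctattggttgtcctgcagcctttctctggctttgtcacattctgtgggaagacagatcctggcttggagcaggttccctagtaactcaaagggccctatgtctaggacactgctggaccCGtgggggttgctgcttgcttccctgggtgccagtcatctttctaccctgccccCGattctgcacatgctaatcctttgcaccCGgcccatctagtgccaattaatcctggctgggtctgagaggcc

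The array positions used in all that follows are those of the deposited files, with a genome build not given in the sources used here. They differ from GRCm38: the Pard3 region is at 126447611 to 126448799 in the files.

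Chromosome 8 stood above every other autosome on every array of both kinds. The median of its sites was between 0.067 and 0.17 on the 7 part 1 arrays (mean 0.12 ± 0.037, SD) and between 0.069 and 0.11 on the 7 part 2 arrays (mean 0.086 ± 0.014). Part 2 carries chromosomes 9 to 19 as well, and the next highest of them, chromosome 11, had a mean of 0.015. Relative to the other autosomes the shift was 0.13 ± 0.038 on part 1 and 0.092 ± 0.015 on part 2, above 0 on 7 of 7 arrays of each part. In RNA the median of the chromosome 8 genes was 0.23, 0.16 and 0.13 on the 3 arrays, highest of all autosomes each time. Relative to the other autosomes it was 0.21, 0.15 and 0.14 (mean 0.17 ± 0.038, exact sign-flip permutation test, two-sided, p = 0.25, the smallest that 3 arrays can give). Of the 455 genes, 267 had a value on all 3 arrays and 188 on 2. RNA medians of single arrays, here and below, therefore do not all cover the same genes, and gene numbers beside them count genes with at least 2 arrays. Chromosome 13 came next in RNA at 0.11 ± 0.034, and its MeDIP mean was -0.0045 ± 0.015. Among the settings tried, these changed the sizes most: normexp background correction gave a part 2 shift of 0.053, and RNA without the detection filter gave 0.049.

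**Figure D1:**
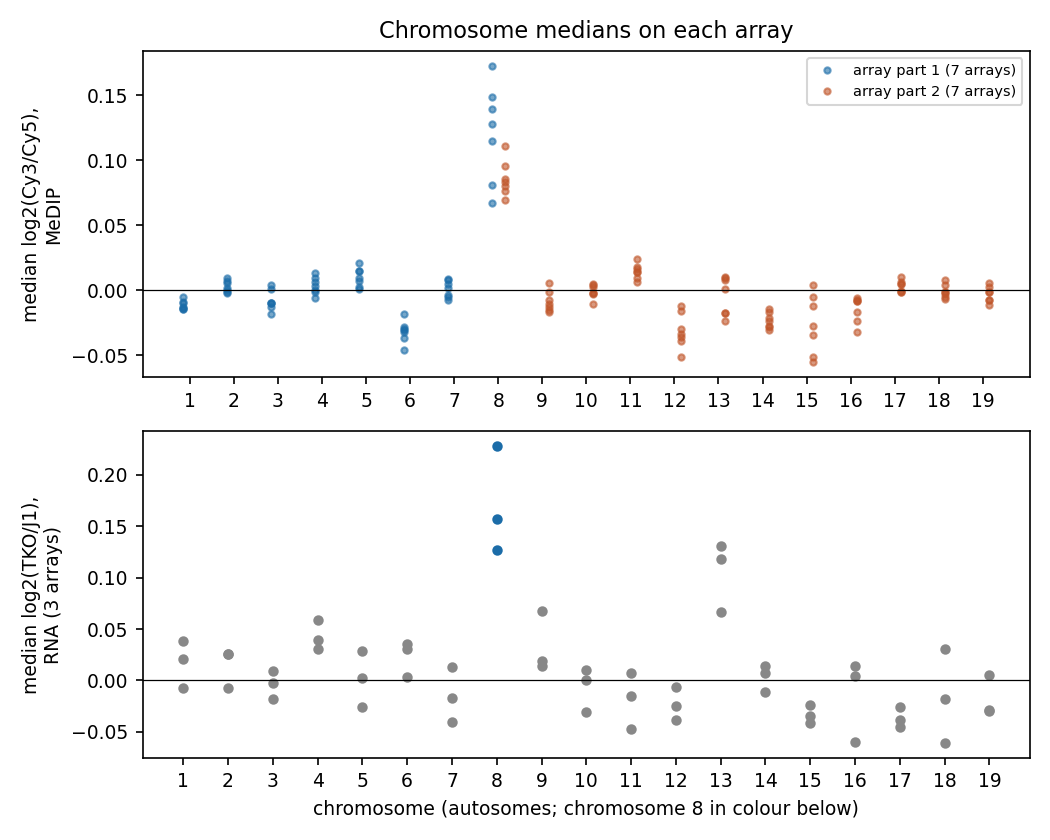
Median log2 ratio of each autosome (x axis) on each array, for MeDIP sites (above, log2(Cy3/Cy5), 7 arrays of part 1 in blue and 7 of part 2 in orange) and for RNA (below, log2(TKO/J1), 3 arrays, chromosome 8 in blue). Points of chromosome 8 lie between 0.067 and 0.17 on part 1, between 0.069 and 0.11 on part 2 and between 0.13 and 0.23 in RNA, above those of every other autosome on the same array.

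The shift was not uniform along the chromosome. In 10-Mb bins both readouts were near the other autosomes in the first bin, high through the interior, and near them again from bin 11 on. MeDIP started at 0.0077 ± 0.023 (SD over 7 arrays, relative to the other autosomes) in the first bin, which holds 206 sites. It was 0.095 ± 0.057 in the second bin and 0.17 ± 0.042, 0.22 ± 0.040, 0.14 ± 0.050 and 0.13 ± 0.068 in bins 3 to 6. Bins 8 and 9 gave 0.22 ± 0.062 and 0.22 ± 0.055. Bin 10 fell back to 0.062 ± 0.019, and bins 11 to 13 gave 0.018 ± 0.013, -0.016 ± 0.013 and 0.033 ± 0.018. A run of 7 neighbouring bins, 3 to 9, exceeded the highest of 236 bins on other autosomes, 0.10. In bin 7 both array parts have sites, which read 0.12 ± 0.050 on part 1 and 0.21 ± 0.038 on part 2, over different promoters, so the scales of the 2 parts were not compared.

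RNA, on other arrays, was also raised in the interior, but on the TKO side, whereas by the dye labels MeDIP was raised on the J1 side. The first bin read -0.10, -0.051 and 0.068 on the 3 arrays over 18 genes. Bins 2 to 9 had array means between 0.21 and 0.39, and each of their 24 array values was above 0, from 0.11 in bin 3 on replicate 3 to 0.51 in bin 8 on replicate 1. Bin 10 read 0.084, 0.13 and 0.066. Bins 11, 12 and 13 had means of -0.028, 0.0079 and -0.037, with arrays on both sides of 0 in the last pair. Of 230 bins on other autosomes the highest was 0.27, and 4 bins of chromosome 8 lay above it. Across the 13 bins MeDIP and RNA medians had Pearson r = 0.828 and a Spearman coefficient of 0.736, where neighbouring bins are not independent, against r = 0.0484 over 230 bins of the other autosomes. The sign of r is that of log2(Cy3/Cy5) against log2(TKO/J1) and would turn with the MeDIP direction. The SD between bins was 0.086 in MeDIP and 0.16 in RNA on chromosome 8, and on the other autosomes it ranged from 0.021 to 0.068 and from 0.027 to 0.13.

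**Figure D2:**
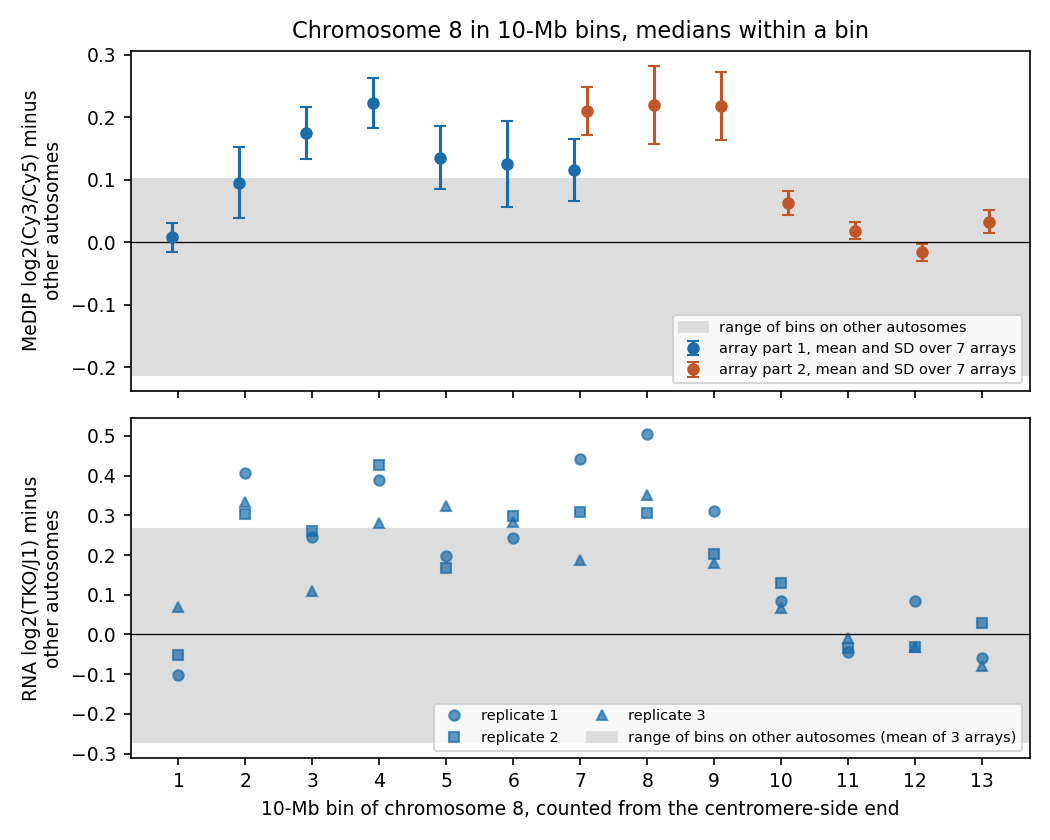
Median log2 ratio within each 10-Mb bin of chromosome 8 minus that of the other autosomes, against bin number. MeDIP is above (points and bars are mean and SD over 7 arrays of each part) and RNA below (a point per array), with grey bands for the range of bins on other autosomes, -0.21 to 0.10 and -0.27 to 0.27. Bins 2 to 9 are raised in both and bins 1 and 11 to 13 are near 0.

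**Figure D3:**
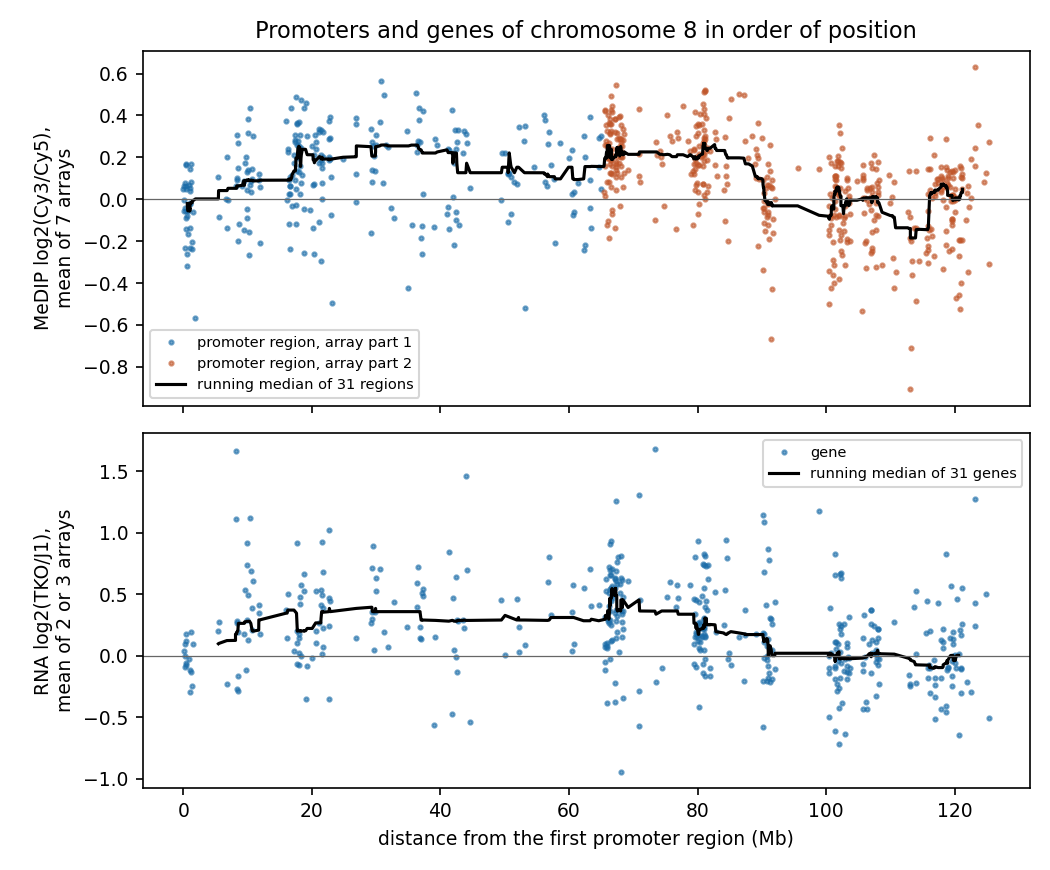
Each promoter region (above, mean MeDIP log2(Cy3/Cy5) over 7 arrays) and each gene (below, mean RNA log2(TKO/J1)) against its distance in Mb from the first region of chromosome 8, with a running median of 31 members in black. Both running medians leave 0 within the first stretch, stay above 0 through the interior and return to 0 after about the same distance, with single members on both sides of 0 throughout.

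Fitting 3 flat levels to the MeDIP regions by least squares put the far edge just past the promoter of Gnao1, a G protein subunit, at 93.16 Mb. Fitted alone, 5 of the 7 part 2 arrays gave this same edge and the other 2 gave edges at 92.21 and 92.5 Mb. RNA, fitted separately, gave 93.88 to 93.95 Mb, between Cpne2 and Psme3ip1, although single RNA arrays ranged from 87.83 to 104.6 Mb and a fit of absolute deviations gave 87.83 to 87.96 Mb. The near edge was less certain. MeDIP means placed it between 19.83 and 19.9 Mb, between the defensin genes Defb6 and Defb3, but single part 1 arrays ranged from 8.687 to 19.9 Mb, and RNA gave 9.979 to 11.32 Mb, between Lig4 and Col4a1. Single RNA arrays placed it as early as 4.628 Mb (replicate 2) and as late as 24.59 Mb (replicate 3), and a fit of absolute deviations gave 4.759 to 8.657 Mb. Simulated profiles had the spread of the real regions and a step of equal size at both edges. In them the near edge was recovered within 10 regions in 20 of 20 runs and the far edge in 14. In the data the near step was smaller, 0.11 on part 1, and the far step was 0.20 on part 2. The simulation therefore does not measure how well the real near edge was placed.

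The stretch between the MeDIP edges, set after the values were seen and without RNA, is called the middle stretch below. Its 365 promoter regions carried a MeDIP shift of 0.16 ± 0.045 on part 1 (lowest array 0.10, highest 0.22) and 0.22 ± 0.055 on part 2 (0.14 to 0.31). The distal end, 264 regions, read 0.013 ± 0.012 (-0.0096 to 0.025). Since the edges were fitted to these MeDIP values, the separation in MeDIP is built in and is given as description. The proximal end, 84 regions, read 0.051 ± 0.031 (0.0035 to 0.079). RNA of the 242 genes in the middle stretch was shifted by 0.36, 0.29 and 0.21 (mean 0.28 ± 0.076), and 84.7% of these genes were above the median of the other autosomes. The 45 genes of the proximal end read 0.22, 0.15 and 0.23 (mean 0.20 ± 0.044, 68.9% above that median) and the 168 genes of the distal end 0.0020, 0.0033 and -0.011 (47.6%). Both ends together read 0.045, 0.038 and 0.032. The middle stretch exceeded both ends together by 0.32, 0.25 and 0.18 (mean 0.25 ± 0.070), above 0 on 3 of 3 arrays (exact sign-flip permutation test, two-sided, p = 0.25, the smallest possible). Without the detection filter the RNA shift of the middle stretch was 0.13, and in the authors' deposited table, converted to log2, it was 0.41.

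The members between the MeDIP and the RNA near edges read like the middle stretch in RNA and lay between it and the other autosomes in MeDIP. From 10 to 15 Mb, 23 genes had RNA shifts of 0.41, 0.32 and 0.29, and MeDIP read 0.10 ± 0.057 over 188 sites. From 15 to 20 Mb MeDIP read 0.070 ± 0.062 over 85 sites, and 4 genes were measured in RNA. With the near edge moved to 10 Mb the proximal end was 0.0077 in MeDIP and the RNA of both ends -0.0078, while the middle stretch kept 0.15 on part 1 and 0.29 in RNA. On the far side MeDIP was -0.0033 ± 0.018 over 181 sites between the edge and 95 Mb. A last raised window held 44 sites beyond 126 Mb, with MeDIP at 0.20 ± 0.057 (0.12 to 0.30 over the 7 arrays) and 5 genes in RNA, of which 4 were above the other autosomes. All windows of this paragraph were set after the values were seen, and the last takes in the Pard3 promoter, the highest of the chromosome. The whole of bin 13 read 0.033 ± 0.018 in MeDIP and -0.037 in RNA.

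Both array parts carry sites of the middle stretch. Part 1 holds chromosome 8 up to 68.2 Mb and part 2 holds it from 68.7 Mb on. Splitting the chromosome at 65.9 Mb gave a distal minus proximal difference of -0.032 in MeDIP and of -0.10 ± 0.014 in RNA (exact sign-flip permutation test, two-sided, p = 0.25), and both sides of the split held raised and level bins.

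Within the middle stretch the whole distribution moved. Between the 10th and the 90th percentile the MeDIP shift ran from 0.15 to 0.27 on part 1 and from 0.22 to 0.33 on part 2, and the RNA shift from 0.27 to 0.34. Leaving out the called promoters changed the shift of the whole chromosome by less than 1 SD on each part. Size depended on spot brightness, in opposite ways in the 2 readouts. With members cut into 3 equal classes of brightness, dim sites of part 2 were shifted by 0.42 ± 0.11, medium ones by 0.23 ± 0.076 and bright ones by 0.11 ± 0.048, each against the same class of the other autosomes. In RNA dim genes were shifted by 0.15 ± 0.045, medium ones by 0.33 ± 0.036 and bright ones by 0.45 ± 0.027. The ends stayed between 0.0025 and 0.084 in all 9 classes of brightness. Distance from the annotated start changed little on part 2, with 0.21 ± 0.054 up to 1 kb, 0.26 ± 0.070 from 1 to 3 kb and 0.25 ± 0.049 beyond. On part 1 the same classes gave 0.16 ± 0.049, 0.12 ± 0.051 and 0.31 ± 0.078, the last over 25 sites. A comparison by CpG content was void, since a sequence window was matched to fewer than 80% of the middle-stretch sites on each part (38.3% on part 1 and 79.7% on part 2) and to 74% of all part 2 sites.

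**Figure D4:**
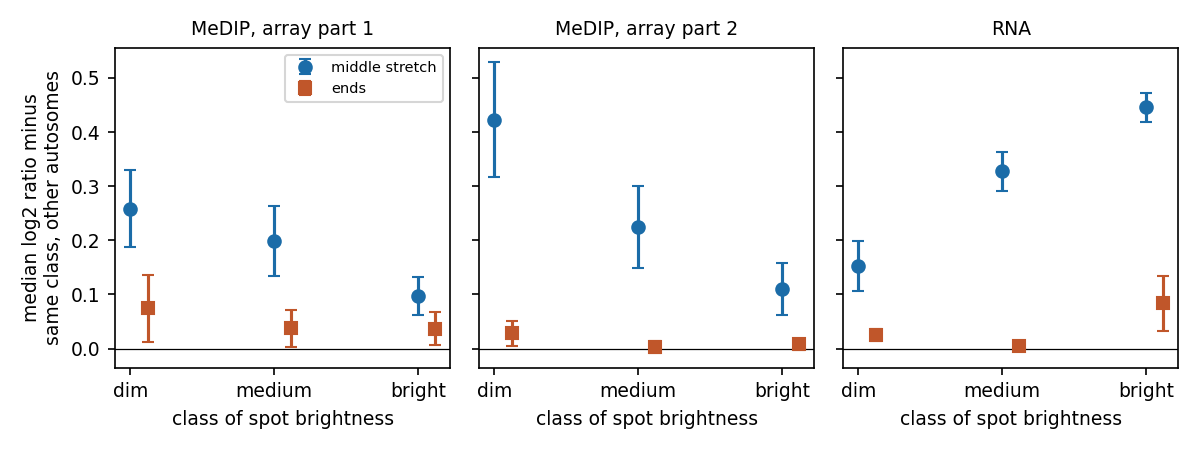
Median log2 ratio of the middle stretch (circles) and of the ends (squares) minus the other autosomes within the same class of spot brightness (x axis, 3 equal classes), with SD over 7 MeDIP arrays of each part or 3 RNA arrays. The MeDIP shift falls from 0.42 in dim sites to 0.11 in bright sites on part 2, and the RNA shift rises from 0.15 to 0.45.

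Single promoters passed the call (adjusted p under 0.05 in limma and a mean of at least 0.5) 8 times on each labelled side of chromosome 8. Over all 14113 regions 0.0709% were called on the side labelled J1 and 2.69% on the side labelled TKO. Since the chromosome was chosen on this contrast, nothing is read from these counts. Of the 8 on the side labelled J1, 7 lay in the middle stretch, and of the 8 on the side labelled TKO, 6 lay in the distal end. These stretches held 365 and 264 of the 713 regions. Their edges were fitted to the same MeDIP values, so this split is description only. Centring the arrays on the chromosome 8 median left 1 and 16, and under normexp background correction no region reached 0.5 in size, the extremes being 0.45 at Pard3 and -0.46 at Cngb1.

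The highest promoter was that of Pard3, a cell polarity scaffold, at 126.4 Mb, where the 7 arrays ran from 0.39 through a median of 0.64 to 0.88. A second region that the files name Pard3, 137513 bp from the nearest start, had a mean of 0.35. Tnks, a poly(ADP-ribose) polymerase that acts at telomeres, ran from 0.43 through 0.54 to 0.70. All arrays of both were above 0, and their ranges overlap. Bst2, which tethers enveloped viruses to the cell surface, ran from 0.13 through 0.58 to 0.75. Close together at 84.2 to 84.3 Mb lay Dnase2a, a lysosomal nuclease (0.51 ± 0.14), Best2, an anion channel (0.52 ± 0.12), and the promoter shared by Get3 and Trir (0.52 ± 0.100). The transcription factor gene Tox3 (0.50 ± 0.13) and the growth factor gene Fgf20 (0.51 ± 0.18) completed the called promoters, with Rbl2, a retinoblastoma relative, at 0.498 and the exonuclease gene Eri1 at 0.495 just below the threshold. On the other side the lowest were the regions nearest Cmc2, with arrays from -1.12 through -0.93 to -0.58, and Gcsh, a subunit of the glycine cleavage system, from -1.12 through -0.82 to -0.27, both about 2 kb or more from the nearest start. Cngb1, a photoreceptor channel subunit, had a mean of -0.67 ± 0.22. Slc10a2, the ileal bile acid transporter, at -0.57 ± 0.19, and Galnt7, a glycosyltransferase, at -0.52 ± 0.14, were the called regions on this side in the proximal end and the middle stretch. Galnt7 thus lay on the opposite side to the regions around it, with all 7 arrays below 0. Just short of this threshold was Poteg at -0.49. Several of these low values shrank with normexp background correction. The mean of Cmc2 went from -0.91 to -0.060, that of Slc10a2 to -0.10, that of Gcsh to -0.30 and that of Galnt7 to -0.27.

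In RNA the genes of chromosome 8 were called higher in TKO far more often than lower. By limma with Benjamini-Hochberg adjustment over all 13125 genes, 179 of the 455 genes (39.3%) rose and 31 (6.81%) fell, where 16.6% of all genes rose and 15.7% fell. In the middle stretch 129 of 242 rose and 11 fell. At both ends together 50 of 213 rose (23.5%) and 20 fell (9.39%), in the proximal end alone 15 of 45 rose (33.3%), and beyond the far edge alone 35 of 168 rose (20.8%) and 20 fell (11.9%). The counts of rising genes shrank to 33 when arrays were centred on the median without loess and to 71 or 70 without replicate 1 or replicate 2, with 10, 14 and 17 falling genes in those fits. Uneven-spot flags removed 8386 spots of replicate 3, so 188 of the 455 genes rest on 2 arrays.

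Large rises were spread over the stretch and its borders. Col4a1 and Col4a2, basement membrane collagen chains transcribed from a shared promoter, read 1.86, 1.92 and 1.22 and 1.35, 1.19 and 0.78 on the 3 arrays (adjusted p = 2.96e-05 and 0.00011). Every array was above 0 for both. Col4a1 is also among the primitive endoderm markers, of which 5 of 8 were detected in J1 and 6 of 8 in TKO on all 3 arrays and all 6 measured rose, with a median of 1.62, and the part of that cell type in its value was not tested. The GTPase-activating protein gene Arhgap10 read 1.75 and 1.60 on 2 arrays, and Wwc2, a WW-domain protein, read 1.55, 1.30 and 1.52 (adjusted p = 6.79e-06). The growth factor Gas6 read 1.21, 0.77 and 1.37, the lysosomal enzyme gene Hgsnat 0.80, 1.00 and 0.99, the endosomal sorting gene Vps36 1.00, 0.85 and 0.89, and the bromodomain gene Brd7 0.92, 1.07 and 0.83. Tmem59l and Fam149a rose by 0.91 and 0.84 on average. Outside the stretch Nol3, an inhibitor of cell death, read 0.82, 0.83 and 0.83 and the GATA cofactor Zfpm1 read 0.93, 0.78 and 0.77.

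Fewer genes fell, and those in the raised stretch fell against their neighbours. Klf2, a pluripotency transcription factor, read -0.87, -1.27 and -0.69 (adjusted p = 0.000302) with its brighter probe, while a second detected probe averaged -0.12. Triml1, an early embryo gene, read -0.41, -0.64 and -0.63 (adjusted p = 0.00118), and Pdlim3 averaged -0.48. The part of the fall in ES cell markers in these values was not tested. At the distal end the kinetochore gene Cenpt read -0.59, -0.57 and -1.01 (adjusted p = 0.000794). The interferon regulatory factor Irf8 averaged -0.52, the transcript 2610044O15Rik8 -0.50, the pyrimidine synthesis gene Dhodh -0.43 and the autophagy gene Map1lc3b -0.43.

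**Figure D5:**
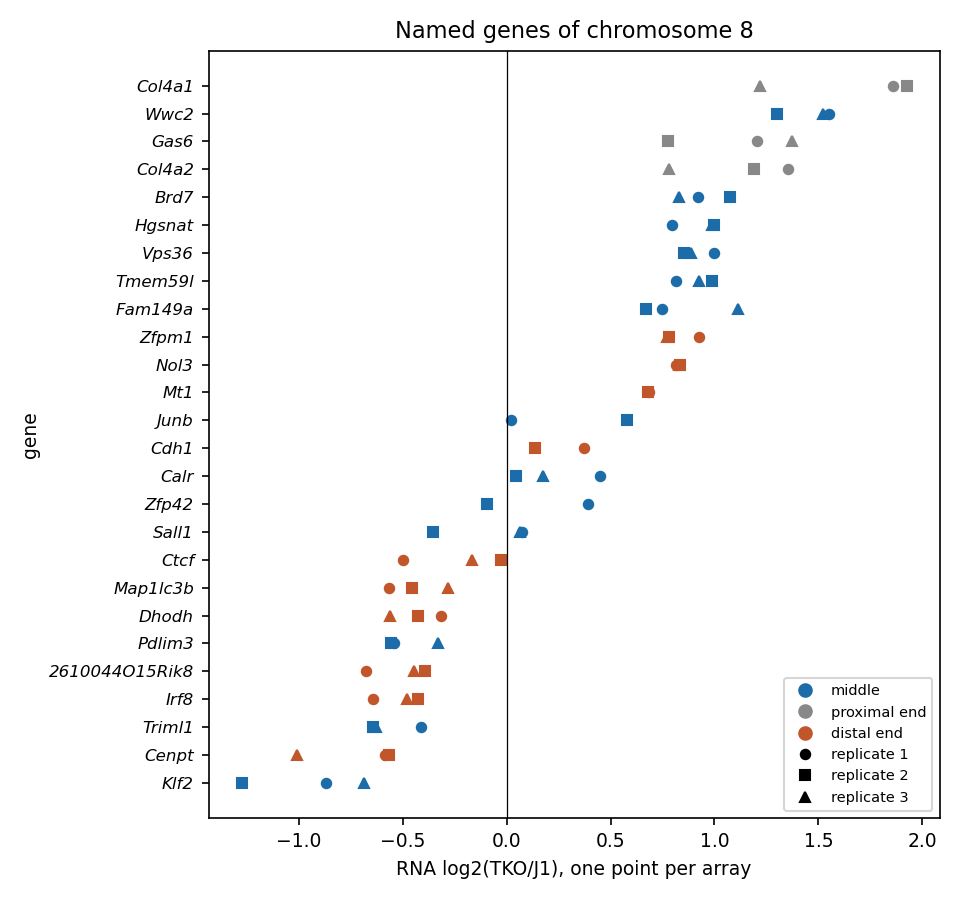
RNA log2(TKO/J1) on each array (symbols) for 11 of the 12 largest rises, the 8 largest falls and 7 fixed genes of chromosome 8, coloured by stretch. Genes from Mt1 upward lie above 0 on every array, those from Map1lc3b down lie below 0 on every array, and the fixed genes Junb, Cdh1, Calr, Zfp42, Sall1 and Ctcf lie between them.

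Functional groups on the chromosome are described by counts, and nothing particular to a group is read from them. The share of genes that rose was 16.6% over all genes, 39.3% on chromosome 8 and 53.3% in its middle stretch. Of 8 measured genes for ribosome, proteasome and respiration 5 rose and 1 fell, with a median of 0.49, led by the respiratory complex I subunits Ndufb7 (0.93, 0.74 and 0.73) and Ndufa13 (0.62 on each of 2 arrays). Of 9 lysosomal, immune and antiviral genes 7 rose, with a median of 0.37, among them Bst2 (1.39 and 1.13), the lysosomal membrane gene Lamp1 (0.77 and 1.06) and Cx3cl1, a chemokine (0.94 and 0.80). Of 9 redox and stress genes 5 rose, with heme oxygenase Hmox1 at 1.46 and 1.16. The metallothionein genes Mt1 (0.69 and 0.68) and Mt2 (0.89 and 1.29) rose while Mt3 and Mt4 averaged 0.11 and -0.018 and did not pass the test, and the Mt1 promoter read 0.028 ± 0.11 in MeDIP. Of 6 adhesion and polarity genes 3 rose, namely Pard3 (1.28 and 1.27, where other probes went down to 0.21), Cdh11 (1.06 and 1.30) and the integrin Itgb1 (0.69, 0.47 and 0.35).

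Of 9 DNA replication and cell cycle genes 3 rose, the origin recognition subunit Orc6 (0.73, 0.50 and 0.95), the ubiquitin ligase scaffold Cul4a (0.80 and 0.68) and the helicase subunit Mcm5 (0.61 and 0.29), and the median of the group was -0.11. Of 5 pluripotency and early embryo genes 2 fell, Klf2 and Triml1, and none rose. Zfp42 read 0.39 and -0.093 on 2 arrays, Cdh1 0.37 and 0.14, and Sall1 0.074, -0.35 and 0.064, none past the test. The germ cell gene Nanos3 was not measured in RNA, and its promoter ran from 0.26 through 0.36 to 0.46 in MeDIP. Of 7 developmental transcription factor genes measured in RNA, the adaptor gene Gab1 (not itself a transcription factor) rose and Irf8 fell. All 12 promoter regions of the 14 genes on this list lay above the other autosomes in MeDIP, with a median shift of 0.21. Of these 14 genes 10 lay in the middle stretch, which was set by the MeDIP values, so the count is description only. In that stretch 72.9% of part 1 sites and 82.3% of part 2 sites lay above the other autosomes. The insulator gene Ctcf read -0.50, -0.027 and -0.17, Junb 0.023 and 0.58, and the chaperone gene Calr 0.45, 0.047 and 0.17, none past the test.

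The defensins had MeDIP values but little RNA to set against them. Of 18 defensin promoter regions 14 lay above the other autosomes, with a median shift of 0.095, and 13 of the 23 genes lay in the middle stretch. On part 1, 72.9% of all sites in the middle stretch and 60.3% of those in the proximal end lay above the other autosomes. Nothing particular to the defensins is read from their count. Defb3 ran from 0.34 through 0.41 to 0.59 over the 7 arrays and Defb11 from 0.43 through 0.48 to 0.55. Only Defa3 was measured in RNA, at 0.011, 0.099 and 0.0056. Of 11 carboxylesterase regions, spread over both sides of the far edge, 5 lay above the other autosomes and the median was -0.069. Ces1e at 92.58 Mb averaged 0.37 and Ces2g at 104.3 Mb averaged -0.36. Both were named for lying far from 0, so the contrast between them follows from the choice. With normexp background correction they averaged 0.29 and -0.091.

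Gene by gene, a promoter's MeDIP ratio said little about the RNA of its gene beyond position. Over 416 genes of the chromosome with a region within 2 kb, r was 0.217 (Spearman coefficient 0.25), over the 223 in the middle stretch 0.0127 (0.00856) and over the 193 at the ends 0.116 (0.0367). The 6819 genes of the other autosomes gave -0.0735 (-0.0545). These are correlations across genes, which are not independent, on shared arrays. Of the genes at the 10 highest promoters 8 were measured in RNA. Pard3, Bst2, Best2 (0.80, 0.87 and 0.76), Dnase2a (0.32, 0.55 and 0.78) and Trir (0.47 and 0.32) rose, whereas Tox3 averaged 0.15, Eri1 0.20 and Rbl2 -0.21 and did not pass the test. Most of these promoters lie in the middle stretch, where 53.3% of all measured genes rose, so nothing is read from the count among these 8. Copy number was not measured on these arrays, and its part in either shift was not tested.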

How the data were processed

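Scanner files of 14 MeDIP arrays and 3 expression arrays were used. The authors scanned them and extracted spot intensity values with Agilent Feature Extraction 8.5, per the submitters' processing notes, and the headers of expression replicates 2 and 3 name version 7.5.1. Each deposited table holds log10 ratios of red over green for the MeDIP arrays and a mean log10 ratio for RNA, per the labels. For MeDIP, processed intensities were turned into log2(Cy3/Cy5) and centred on each array's median. Sites closer than 2000 bp formed a region, averaged over at least 3 sites. For RNA, normexp with an offset of 50 and loess were applied, replicate 2 was turned, and a gene took its brightest probe detected in a line on all 3 arrays. Of 41174 probes, 22214 were named by RefSeq accession and 5519 by the symbol in the file. limma 3.58.1 in R 4.3.3 was fitted to all regions of a part or all genes, with Benjamini-Hochberg adjustment. Between 86.8% and 99.1% of MeDIP sites and between 38.6% and 66.8% of expression probes were well above background on an array, and the number of arrays limits the precision. On simulated data limma recovered 100% and 99.5% of MeDIP changes of 0.7 on parts 1 and 2, and in RNA 85.5% of changes of 1 and 0% of changes of 0.5. The RNA simulation changed 200 of 8453 genes, whereas in the real fit 2173 genes were called higher and 2065 lower. The adjustment was therefore stricter in the simulation, and its shares do not carry over to the real RNA calls. Named members were the 10 highest and 8 lowest promoters, the 12 highest and 8 lowest RNA calls with 1 sign on 3 arrays, leading members of fixed lists, and 8 fixed genes. Members and lists were chosen with earlier results of these data known. A few named members are not reported here.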

Additional observations from a re-analysis of the deposited data

Results flagged for a closer look

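Of 50 groups of 7 arrays examined, 3 held an array far from the others, where chance alone flags about 1 group in 20. At the Bst2 promoter 1 array read 0.13 against a median of 0.58, at the Ndufb7 promoter 1 read 0.074 against 0.20, and at the Dnase2a promoter 1 read 0.23 against 0.496.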

How the results depend on the processing

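Across the settings tried, the shift of chromosome 8 kept its sign in each readout, and sizes and counts moved. Normexp gave a part 2 MeDIP shift of 0.053, 0.15 for its middle stretch and -0.0073 for the distal end, which reversed; a mean over probes gave 0.12. In RNA the shift was 0.24 from Agilent processed signals, 0.25 in the authors' deposited table and 0.049 without a detection filter, and the middle stretch read 0.41, 0.41 and 0.13. Both ends read 0.032 in the authors' deposited table and 0.0059 without the filter. A near edge at 10 Mb gave 0.0077 for the MeDIP proximal end and -0.0078 for the RNA of both ends, which reversed. Promoters called on the side labelled J1 numbered 0 with normexp, 3 with mode centring, 5 with at least 5 probes, 1 centred on chromosome 8 and 353 by adjusted p alone, and from 4 to 13 without single replicates (13 without replicate 1, 5 without 4 and 4 without 6). On the side labelled TKO they numbered 0 with normexp, 4 with a median over probes, 5 with probes above background, 16 centred on chromosome 8 and 130 by adjusted p alone, and from 4 (without replicate 2) to 10. Genes higher in TKO numbered 33 with median centring, 78 with a dye term and 12 with a 2-fold limit, and 70 to 165 without single replicates. Genes lower in TKO numbered 10, 14 and 0, and 14 to 28. MeDIP bins above the other autosomes made 100% with 20-Mb bins and with normexp, and RNA bins 69.2% with Agilent signals. The RNA distal minus proximal difference was -0.22 split at the median probe and -0.20 with Agilent signals. With the replicate block, pairing same-numbered arrays of both parts, the MeDIP distal minus proximal difference was -0.032 (SD 0.031 over pairs, 0.041 unpaired), and no call rests on it. The cause was not tested for any of these moves.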

Other observations

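Beyond the far edge of the raised stretch, 3 members at the very end of the chromosome, chosen after their values were seen, were called higher in TKO beside Pard3. They were Tomm20, a mitochondrial import receptor (0.16, 0.28 and 0.29), Rbm34, an RNA-binding protein (0.66 and 0.19), and Itgb1 (0.69, 0.47 and 0.35). The next gene outward, 2610044O15Rik8, read -0.68, -0.39 and -0.45 and was called lower. At the opposite end, 0 of the 18 genes before 10 Mb were called by limma, with 4 at an unadjusted p under 0.05 and 2 called when Agilent processed signals were used. Between the far edge and 95 Mb, where MeDIP was level, calls went both ways, with Nudt21, a cleavage factor, at -0.77 and -0.38 and Adgrg3, an adhesion receptor, at 0.76, 0.52 and 1.06.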
